A study of Mus musculus with 7 samples.

Results

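Polycomb genes encode the subunits of the 2 Polycomb repressive complexes, and 9 of them were followed here by the lactylation of histone H3 at lysine 18 (H3K18La) over their promoters and gene bodies in the developing mouse retina. They were Ezh1, Ezh2, Eed, Suz12 and Jarid2 of PRC2, and Rnf2, Ring1, Bmi1 and Cbx2 of PRC1. The members were chosen by gene symbol, and all 9 had at least 1 peak. Together they held 50 of the 108253 merged H3K18La peaks, of which 12 were promoter peaks. The study profiled the mark by CUT&Tag, in which an antibody guides an enzyme to marked chromatin and the DNA cut out nearby is sequenced. Retinas of C57Bl/6J mice were dissociated with papain at postnatal days 4, 10 and 28 (P4, P10 and P28), with no other genotype or agent among the groups compared. Both younger ages had 2 libraries each and P28 had 3, 7 in all, and the labels put 6 of the 7 in batch 1 and the first P28 replicate in batch 2. The study's text speaks of 3 replicates, and no further P4 or P10 library was analysed here. The series calls its assays biologically replicated, but the sources do not say which animals went into which library, so the p-values measure the spread between these libraries.

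PRC2 places methyl groups on lysine 27 of histone H3, a mark of silenced genes. Its catalytic subunit is either Ezh2, which is typical of dividing cells, or Ezh1, which is typical of cells that have left the cell cycle. Eed binds the methylated product and Suz12 scaffolds the core, while Jarid2 is an accessory subunit that helps recruit the complex. PRC1 places ubiquitin on histone H2A through Rnf2 (RING1B) or Ring1 (RING1A), each paired with a PCGF protein such as Bmi1, and CBX proteins such as Cbx2 read the PRC2 mark. In the retina PRC2 is known for its part in keeping progenitors proliferating. H3K18La itself is usually found with marks of active chromatin.

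The libraries differed widely in depth, from 199970 reads in peaks for P10 replicate 1 to 8274373 for P28 replicate 2, a 41.4-fold range. P4 replicates held 358971 and 295383, P10 replicate 2 held 660740, and P28 replicates 1 and 3 held 1615969 and 3304783. In P10 replicate 1, 45.8% of all peaks had 0 reads, and 1 read at a peak of median width was worth 2.38 RPKM there against 0.0812 RPKM in P28 replicate 2. Levels are given as RPKM, reads per kilobase of peak scaled by a normalised library size. Changes are differences of log2(RPKM + 1), tested by limma over all peaks, and a change was called where the p adjusted by Benjamini-Hochberg was under 0.01. This scale understates the change of weak peaks. The share of the library size that lay in peaks also differed by age, from 16.3% and 17.6% at P4 to between 42.4% and 57.1% at P28, and between these ages the median peak changed by 0.68. From P4 to P28, 18.9% of all peaks were called higher and 4.21% lower. Scaling to reads in peaks in place of the authors' library size moved the median change to -0.29 and those shares to 7.30% and 15.6%. Of the rod photoreceptor markers, 5 of 8 had a promoter peak. Their summed level was 8.40 to 10.1 RPKM at P4, 69.8 to 79.5 RPKM at P10 and 61.9 to 90.2 RPKM at P28. All 5 were called higher from P4 to P10 and from P4 to P28. Of 12 progenitor and cell cycle markers, 7 had a promoter peak. They summed to 8.06 to 15.4 RPKM at P4, 2.43 to 13.2 RPKM at P10 and 31.1 to 40.5 RPKM at P28. Of these 7, 2 were called higher from P4 to P28, Pcna and Mcm2, and 0 from P4 to P10. The change to P28 was above 0 in 6 of the 7, while Sox2 was lower in every P28 library than in both P4 libraries (-0.61). The median change of the 7 was 0.69 to P28 and -0.23 to P10. In whole retina, a change in the share of a cell type cannot be told apart from a change of the mark per cell, and the part of these markers in the results below was not tested.

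Of Ezh1 and Ezh2, the alternative methyltransferases of PRC2, Ezh2 had the higher H3K18La level per length in both P4 libraries and Ezh1 in all 3 P28 libraries. The Ezh1 promoter peak (ENSMUSG00000006920, GRCm38 chr11:101225909-101226649) stood at 0.613 and 0.805 RPKM in the P4 libraries, 0 and 1.06 RPKM at P10, and 6.02, 5.39 and 7.46 RPKM at P28. Every P28 library was above every P4 and P10 library, whereas P4 and P10 overlapped. The Ezh2 promoter peak (ENSMUSG00000029687, GRCm38 chr6:47594071-47595662) stood at 2.57 and 1.87 RPKM at P4, 0 and 3.47 RPKM at P10, and 3.96, 4.40 and 5.86 RPKM at P28. Its P28 libraries also lay above its P4 libraries. The change in log2(RPKM + 1) from P4 to P28 was 2.08 ± 0.46 (SE, adjusted p = 0.00587, limma) for Ezh1 and 0.83 ± 0.59 (SE, adjusted p = 0.272, limma) for Ezh2. The direction of the Ezh2 change depended on the scaling, at -0.37 (adjusted p = 0.590, limma) with scaling to reads in peaks and 0.05 (adjusted p = 0.927, limma) with quantile normalisation, where Ezh1 changed by 1.14 (adjusted p = 0.0511, limma) and 1.83 (adjusted p = 0.00378, limma). On the deposited scale Ezh1 passed the threshold and Ezh2 did not, which by itself does not show that they differ. The pooled Ezh1 reads gave a fold of 8.54 with a counting interval of 2.31 to 71.4, and those of Ezh2 a fold of 2.05 (1.20 to 3.83).

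**Figure D1:**
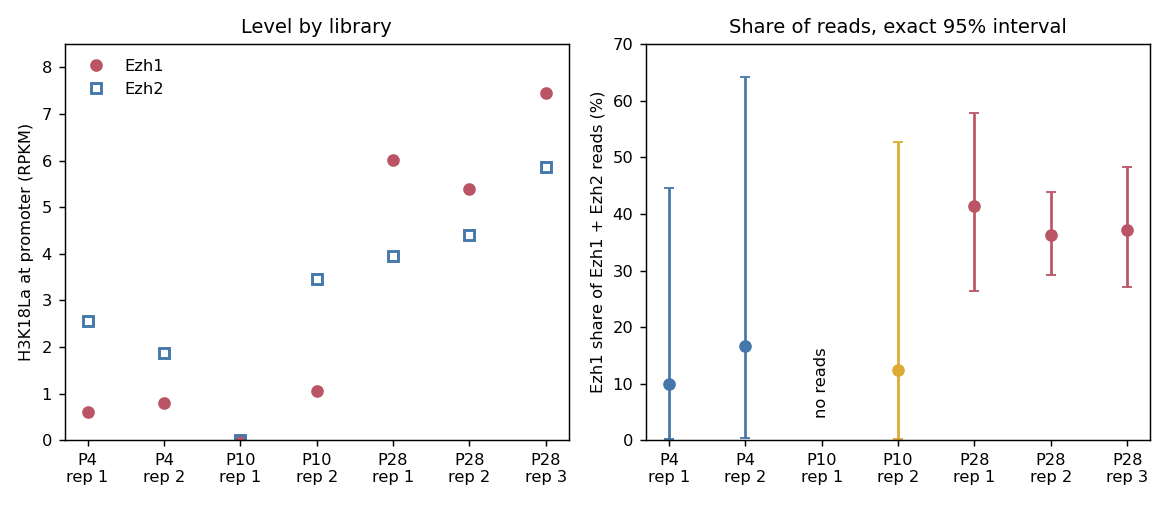
The left panel plots H3K18La at the Ezh1 (filled circles) and Ezh2 (open squares) promoter peaks in RPKM for each of the 7 libraries. The right panel plots the Ezh1 share of the reads of both peaks in percent with exact 95% binomial intervals. In RPKM Ezh2 is the higher of the pair in both P4 libraries and Ezh1 in all 3 P28 libraries, while the longer Ezh2 peak holds more of the reads in every library that has any.

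The contrast between them was therefore measured within each library, where the scaling of the library cancels apart from the added 1. The Ezh1 minus Ezh2 difference in log2(RPKM + 1) was -1.15 and -0.67 in the P4 libraries, 0 and -1.11 at P10, and 0.50, 0.24 and 0.30 at P28. It was below 0 in both P4 libraries and above 0 in all 3 P28 libraries. The mean difference went from -0.91 ± 0.34 (SD, n = 2) to 0.35 ± 0.14 (SD, n = 3), a shift of 1.26 upward with a two-sided exact permutation p of 0.2, which is the smallest that 3 against 2 libraries can give. From P4 to P10 the shift was 0.35 (two-sided exact permutation p = 0.667, n = 2 and 2; the smallest possible is 0.3333), and P10 replicate 1 had no reads at either peak. Of the reads in both peaks, Ezh1 took 1 read of 10 and 1 of 6 in the P4 libraries and 41.5%, 36.3% and 37.2% in the P28 libraries. Pooled, there were 2 Ezh1 and 14 Ezh2 reads at P4, an Ezh1 share of 12.5% with an exact 95% interval of 1.55 to 38.3%. At P28 there were 114 and 192 reads, a share of 37.3% (31.8 to 42.9%), and at P10 1 and 7 reads, a share of 12.5% (0.316 to 52.7%). The mean share differed by 25.0 percentage points between P28 and P4 (exact permutation p = 0.2, two-sided, n = 3 and 2). These intervals cover counting error only, since the reads carry no molecular identifiers, and the Ezh1 level at P4 rests on 1 read in each library. Among 9956 promoter peaks, 1 per protein-coding gene, the mean level of Ezh1 exceeded 16.8% of the others at P4 and 61.5% at P28, while that of Ezh2 exceeded 67.9% and then 47.2%.

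Both promoters are CpG-rich, and their RefSeq windows (GRCm38.p6, 250 bases before to 50 after the start, minus strand for both) are shown with CpG dinucleotides in capitals. They describe the pair compared above, though that comparison used the reads over the peaks and not these windows. The Ezh1 window lies at chr11:101226414-101226713, of which 236 bases fall in its peak, and the Ezh2 window at chr6:47594981-47595280 lies wholly in its peak.
Ezh1: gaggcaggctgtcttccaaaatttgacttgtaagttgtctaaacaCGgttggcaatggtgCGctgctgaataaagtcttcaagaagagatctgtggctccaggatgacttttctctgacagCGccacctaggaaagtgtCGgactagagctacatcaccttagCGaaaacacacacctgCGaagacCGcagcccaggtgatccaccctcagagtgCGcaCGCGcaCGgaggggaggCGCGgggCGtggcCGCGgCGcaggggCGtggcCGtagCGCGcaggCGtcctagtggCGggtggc
Ezh2: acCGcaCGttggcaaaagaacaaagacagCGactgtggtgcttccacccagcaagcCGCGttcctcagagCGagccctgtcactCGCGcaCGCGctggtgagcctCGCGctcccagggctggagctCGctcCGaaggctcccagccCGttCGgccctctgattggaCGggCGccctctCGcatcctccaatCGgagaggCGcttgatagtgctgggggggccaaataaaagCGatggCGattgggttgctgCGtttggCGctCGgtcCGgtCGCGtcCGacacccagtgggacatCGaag
The Ezh1 window held 23 CpG and 59.3% GC, and the Ezh2 window 31 CpG and 64.3% GC, against medians of 7 CpG and 52.7% GC over 32851 windows. Of the motifs searched on both strands, the Ezh2 window held the E2F letters TTTGGCGC once, which occur in 0.514% of all windows, and the NF-Y letters CCAAT 3 times, which occur in 37.4%. The Ezh1 window held neither, nor the GC box GGGCGG, the other E2F letters TTTCGCGC, the ETS letters CCGGAAGT, the CRX and OTX2 letters TAATCC or the NRF1 letters GCATGCGC. In the central 300 bases of the peaks themselves the pattern differed, with 2 GC boxes for Ezh1 and 1 for Ezh2, and no E2F or CCAAT letters in either. A match is a stretch of letters and not a measured binding site.

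The promoters nearest to Ezh1 in level over the 7 libraries were those of Armc7, Calu and Tmem160, at Euclidean distances of 0.26, 0.46 and 0.48 in log2(RPKM + 1), against a median distance of 2.93 over all promoters. Armc7 stood at 0.564 and 0.741 RPKM at P4 and at 5.21, 5.96 and 8.15 RPKM at P28. Those nearest to Ezh2 were Tfam, which encodes a mitochondrial transcription factor, Mfsd3 and Cnot2, a subunit of the CCR4-NOT deadenylase, at 0.38, 0.47 and 0.50 (median 2.76). Tfam stood at 2.92 and 1.64 RPKM at P4 and at 4.33, 5.30 and 4.91 RPKM at P28. All 6 were listed at 0 in P10 replicate 1, as were Ezh1 and Ezh2. No gene was nearest to both.

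**Figure D2:**
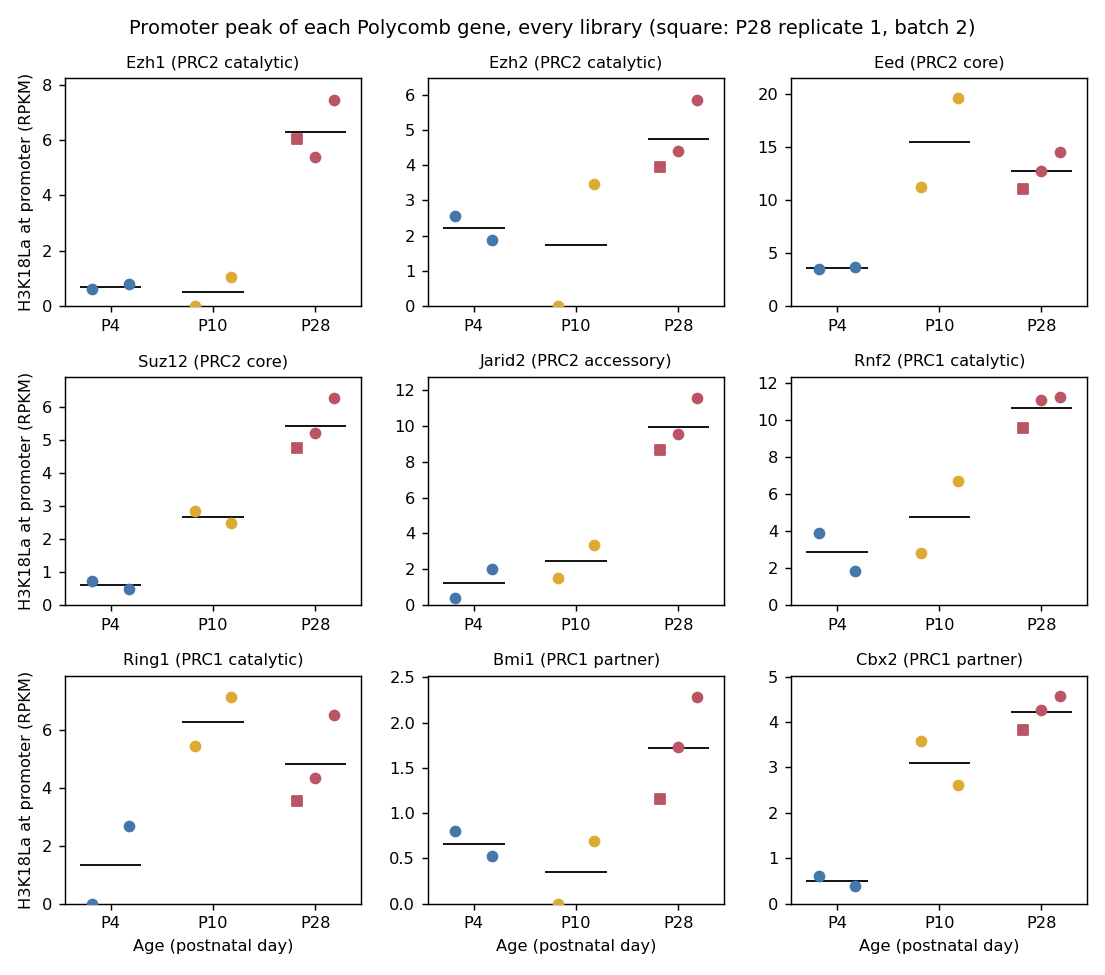
Each panel plots H3K18La in RPKM at the promoter peak of 1 Polycomb gene against age, with a point for every library, a square for the batch 2 library and a line at the mean of the age. In all 9 panels the P28 libraries lie above both P4 libraries, and for Eed and Ring1 the mean at P10 lies above the mean at P28 while their libraries overlap.

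Eed and Suz12, the core subunits that hold PRC2 together, were both called higher from P4 to P28, and Eed also from P4 to P10. The Eed promoter peak (GRCm38 chr7:89980375-89981657) had the highest mean level of the 9 at all 3 ages, with 3.54 and 3.72 RPKM at P4, 11.3 and 19.7 RPKM at P10, and 11.0, 12.7 and 14.5 RPKM at P28. Neither the P10 nor the P28 libraries overlapped the P4 libraries, and P10 and P28 overlapped each other. Its change was 1.78 ± 0.34 (SE, adjusted p = 0.00400, limma) from P4 to P10 and 1.57 ± 0.31 (SE, adjusted p = 0.00343, limma) from P4 to P28. With scaling to reads in peaks these changes fell to 0.62 (adjusted p = 0.0623, limma) and 0.23 (adjusted p = 0.403, limma), and with quantile normalisation to 0.57 (adjusted p = 0.139, limma) and 0.31 (adjusted p = 0.322, limma). The peak also holds 3 start sites of the noncoding transcript E230029C05Rik on the opposite strand, and the assay does not tell the 2 genes apart. The Suz12 promoter peak (GRCm38 chr11:79992371-79993633) went from 0.720 and 0.472 RPKM at P4 through 2.86 and 2.50 RPKM at P10 to 4.78, 5.21 and 6.29 RPKM at P28, with no overlap between any 2 ages. Its change was 2.01 ± 0.37 from P4 to P28 (SE, adjusted p = 0.00255, limma), and its 1.21 ± 0.41 from P4 to P10 (SE, adjusted p = 0.0439, limma) did not pass. Suz12 had 3 reads in all at P4, and the pooled reads gave a fold of 8.79 with a counting interval of 2.96 to 43.0. A second Suz12 peak, at -5833 bases from the start site, had 0 reads at P4 and 4.20, 3.74 and 4.42 RPKM at P28.

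Jarid2, the accessory subunit, carried 33 of the 50 peaks, spread over 3 promoters, 20 intron peaks, 2 exon peaks and 8 distal intergenic peaks upstream. The promoter peak chosen by the rule, at an internal start site of a protein-coding transcript (GRCm38 chr13:44839842-44841020), stood at 0.385 and 2.02 RPKM at P4, 1.53 and 3.34 RPKM at P10, and 8.68, 9.54 and 11.6 RPKM at P28. All P28 libraries lay above the other 4, and the change from P4 to P28 was 2.41 ± 0.44 (SE, adjusted p = 0.00221, limma), the largest among the 9. With the widest Jarid2 promoter peak, described below, the change was 1.94, below Ezh1 (2.08) and Suz12 (2.01). Without P4 replicate 1 the change of the chosen peak was 1.84, below Suz12 (2.12), Rnf2 (2.02), Ezh1 (2.00) and Cbx2 (1.90). Pooled reads of this Jarid2 peak gave a fold of 9.02 with a counting interval of 3.82 to 27.98. The peak over the first promoter (chr13:44729401-44731371), which the file assigns to a noncoding transcript of the gene, was at 3.92 and 3.94 RPKM at P4, 17.4 and 20.4 RPKM at P10, and 17.2, 16.1 and 20.8 RPKM at P28. Its P10 and P28 libraries overlapped and both lay above P4, with changes of 2.01 to P10 (adjusted p = 0.00131, limma) and 1.94 to P28 (adjusted p = 5.25e-04, limma). These fell to 0.83 (adjusted p = 0.0205, limma) and 0.58 (adjusted p above 0.01, limma) with scaling to reads in peaks, and to 0.68 (adjusted p = 0.0728, limma) and 0.57 (adjusted p = 0.0670, limma) with quantile normalisation, and over the 15 settings the calls held in 11 and 13. The promoter peak just downstream (chr13:44733452-44734250) overlapped between P4 and P10 and was higher at P28, at 1.71 and 2.99 RPKM at P4, 2.26 and 1.97 RPKM at P10, and 13.8, 12.9 and 12.5 RPKM at P28 (change from P4 2.10, adjusted p = 0.00101, limma).

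**Figure D3:**
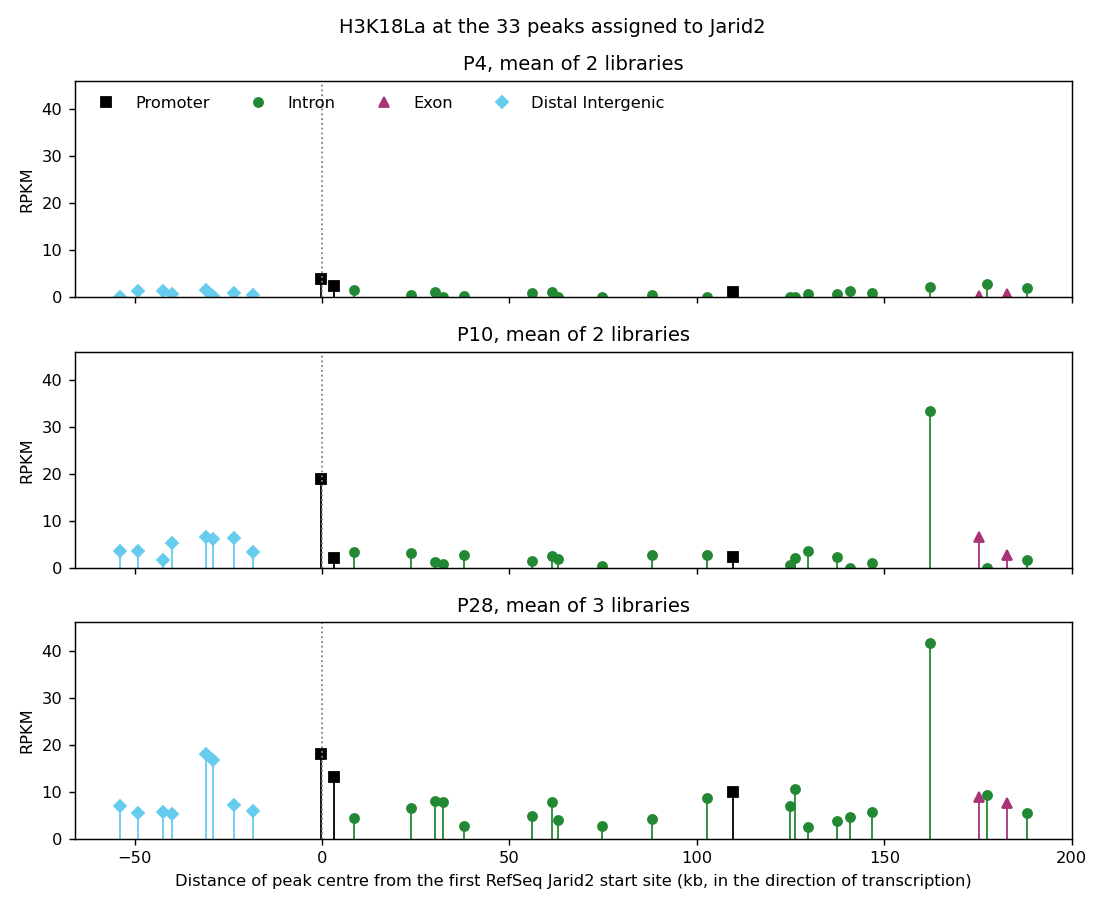
The 33 peaks assigned to Jarid2 are plotted by the distance of their centre from the first RefSeq start site in kb, with the mean RPKM of the libraries of each age and a symbol for the annotated class. The intron peak 161563 bases downstream rises from 2.19 RPKM at P4 to 33.3 RPKM at P10 and 41.7 RPKM at P28 and stands above every other Jarid2 peak at the later ages.

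The peak with the highest level among all 50 at P10 and P28 was not a promoter peak. It lies in intron 6 of 18 of Jarid2 (GRCm38 chr13:44892337-44893433), 161563 bases from the start site. It stood at 1.66 and 2.72 RPKM at P4, 32.9 and 33.8 RPKM at P10, and 37.5, 38.6 and 48.8 RPKM at P28. All P10 and P28 libraries lay above both P4 libraries, and P10 and P28 did not overlap either. The change was 3.45 ± 0.29 from P4 to P10 (SE, adjusted p = 3.81e-04, limma) and 3.75 ± 0.26 from P4 to P28 (SE, adjusted p = 1.13e-04, limma), and 0.30 ± 0.26 from P10 to P28 (SE, adjusted p = 0.447, limma). Both changes from P4 were called under all 15 settings tried, with the change to P10 between 2.33 and 3.91. Its mean level exceeded 72.5% of the 45481 intron peaks at P4, 99.3% at P10 and 99.8% at P28. The central 300 bases, shown because this peak had the largest change from P4 to P10 of the 50, lie at chr13:44892736-44893035 on the plus strand of GRCm38.p6, with CpG in capitals.
Jarid2 intron peak: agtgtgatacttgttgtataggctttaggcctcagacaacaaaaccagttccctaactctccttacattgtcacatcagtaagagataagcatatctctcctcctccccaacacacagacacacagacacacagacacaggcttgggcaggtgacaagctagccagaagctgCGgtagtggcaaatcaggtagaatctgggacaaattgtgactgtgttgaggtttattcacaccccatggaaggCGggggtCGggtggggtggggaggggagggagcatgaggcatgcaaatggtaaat
They held 3 CpG and none of the 7 motifs listed above.

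The other called Jarid2 peaks differed in whether they also passed at P10. The intergenic peak at chr13:44701287-44701936 had 1 read in all at P4 and stood at 2.78 and 9.70 RPKM at P10 and at 14.1, 16.2 and 19.9 RPKM at P28. It was called at both ages, with changes of 2.29 to P10 (adjusted p = 0.00759, limma) and 3.75 to P28 (adjusted p = 3.69e-04, limma), of which the P10 call held under 6 of 15 settings. The peak in intron 4 at chr13:44856660-44857248 had no reads at P4, 3.07 and 1.34 RPKM at P10 and 7.57, 12.6 and 11.4 RPKM at P28, and the mean at P28 was at least 3.94-fold higher than 3 reads in each P4 library would give. Of all 33, 17 were called higher from P4 to P28, against 18.9% of all peaks, and 5 from P4 to P10, against 11.4%, to which the share at P10 is near. A single peak, in an intron at chr13:44907667-44908660, was called lower at P10 (change -1.95, adjusted p = 0.00920, limma). It stood at 2.74 and 3.00 RPKM at P4, had 0 reads in both P10 libraries, and stood at 5.54, 10.1 and 12.5 RPKM at P28.

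Of Rnf2 and Ring1, the ubiquitin ligases of PRC1, Rnf2 was called from P4 to P28 by limma and Ring1 was not. With limma voom both were called, as were 53.3% of all promoters. The Rnf2 promoter peak (GRCm38 chr1:151500165-151501452) was at 3.88 and 1.85 RPKM at P4, 2.80 and 6.73 RPKM at P10, and 9.57, 11.1 and 11.3 RPKM at P28. The P28 libraries stood apart from all others, while P4 and P10 overlapped. The change from P4 to P28 was 1.64 ± 0.39 (SE, adjusted p = 0.00897, limma), just inside the threshold. It fell to 0.36 (adjusted p = 0.440, limma) with scaling to reads in peaks and to 0.57 (adjusted p = 0.284, limma) with quantile normalisation. The Ring1 promoter peak (GRCm38 chr17:34024427-34025090) was at 0 and 2.70 RPKM at P4, 5.44 and 7.12 RPKM at P10, and 3.56, 4.35 and 6.50 RPKM at P28. Both later ages lay above P4 and overlapped each other. By limma neither change passed (1.91 ± 0.59 to P10, SE, adjusted p = 0.0297, and 1.56 ± 0.54 to P28, SE, adjusted p = 0.0403). By limma voom both did, at 2.87 to P10 (adjusted p = 0.00435) and 2.25 to P28 (adjusted p = 0.00293). The change to P10 was 0.97 without P4 replicate 1 and 2.85 without P4 replicate 2. The change to P28 was 0.62 and 2.50 in the same order. Ring1 had 3 reads at P4, all in replicate 2, and its peak also holds start sites of Gm26940 and Mir219c.

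Bmi1 and Cbx2 are partners of the ligases in PRC1. With all 7 libraries they had the smallest and the largest change from P4 to P28 of the 4 PRC1 genes. Without P4 replicate 1 these were Ring1 (0.62) and Rnf2 (2.02), against 0.81 for Bmi1 and 1.90 for Cbx2. The Bmi1 promoter peak (GRCm38 chr2:18677770-18678905) was the weakest of the 9 at P28, with 0.800 and 0.525 RPKM at P4, 0 and 0.694 RPKM at P10, and 1.15, 1.73 and 2.28 RPKM at P28. Its change from P4 to P28 of 0.70 ± 0.39 (SE, adjusted p = 0.170, limma) was the smallest among the 9 on the deposited scale. With scaling to reads in peaks Ezh2 was lower (-0.37 against -0.12 for Bmi1), as with quantile normalisation (0.05 against 0.37). A shorter Bmi1 promoter peak (chr2:18677084-18677372) was at 4.72 and 4.13 RPKM at P4 and at 6.35, 7.02 and 6.57 RPKM at P28, with a change of 0.50 (adjusted p = 0.545, limma). Neither peak overlapped the RefSeq promoter window of Bmi1 at chr2:18676768-18677067. The Cbx2 promoter peak (GRCm38 chr11:119022813-119024325) went from 0.601 and 0.394 RPKM at P4 to 3.58 and 2.61 RPKM at P10 and 3.81, 4.27 and 4.57 RPKM at P28, without overlap between ages. The change to P28 was 1.80 ± 0.39 (SE, adjusted p = 0.00529, limma), and the pooled reads gave a fold of 8.34 with a counting interval of 2.81 to 40.9, from 3 reads at P4. An exon peak of Cbx2 (chr11:119026015-119026705) was highest at P10, at 7.84 and 11.4 RPKM, against 1.32 and 0.864 RPKM at P4 and 4.94, 3.38 and 3.25 RPKM at P28. Its change of 2.33 from P4 to P10 passed the test (adjusted p = 0.00263, limma), and it is named after its values were seen.

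Set side by side, 6 of the 9 promoter peaks were called higher from P4 to P28, those of Ezh1, Eed, Suz12, Jarid2, Rnf2 and Cbx2, and none had a change below 0, although Ezh2 (-0.37) and Bmi1 (-0.12) did with scaling to reads in peaks. Over all 9956 promoters 33.4% were called higher and 0.281% lower. The median change was 1.64 for the 9 and 1.35 for all promoters. All 9 had every P28 library above both P4 libraries, which held for 79.8% of all promoters. From P4 to P10, Eed alone was called, a call that held under 9 of 15 settings, against 11.6% of all promoters, and 4 of the 9 had both P10 libraries above both P4 libraries, against 46.1%. From P10 to P28 limma called 0 of the 9, and over all peaks 0.00185% were called higher. An unadjusted p under 0.05 was reached by 5 of the 9, against 39.5% of all promoters. With limma voom 0 of the 9 were called, against 4.39% of all promoters called higher. At an adjusted p under 0.05, 2 of the 9 passed from P10 to P28, Ezh1 and Jarid2, against 15.2% of all promoters and 10.1% of all peaks called higher. Jarid2 stands here for the internal promoter chosen by the rule. Its first promoter peak was called from P4 to P10 (2.01, adjusted p = 0.00131, limma). From P10 to P28 that peak changed by -0.07 (adjusted p = 0.869, limma). Over all 50 member peaks, 25 were called higher and none lower from P4 to P28, against 18.9% of all peaks called higher and 4.21% lower, and 17 of the 25 were Jarid2 peaks, with 8 of 17 called among the other members. The change was above 0 in all 50, as it was in 72030 of the 108253 peaks, and the median was 1.81 against 0.68 over all peaks. The merged set takes in peaks called at a single age. Those of the 50 with 0 reads in both P4 libraries, such as the Suz12 peak upstream of its promoter, could not change to below 0. They are counted in these totals. From P4 to P10, 7 were called higher and 1 lower, against 11.4% of all peaks called higher and 7.34% lower. These shares of all peaks became 4.38% and 16.1% with scaling to reads in peaks, and 14.5% and 0.0924% with limma voom.

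These calls at P28 were sensitive to scaling and to single libraries. The share of all promoters called, 33.4% with all libraries, was also lower under the settings named next. Scaling to reads in peaks left 0 of the 9 promoters called at an adjusted p under 0.01, against 7.48% of all promoters, with changes of 1.14 for Ezh1 (adjusted p = 0.0511, limma), 1.11 for Suz12 (adjusted p = 0.0360, limma), 1.39 for Jarid2 (adjusted p = 0.0336, limma) and 0.97 for Cbx2 (adjusted p = 0.0727, limma). Leaving out P4 replicate 2 left 1, and leaving out P4 replicate 1 or any 1 of the P28 libraries left 0, against 9.33% to 17.5% of all promoters. Without P28 replicate 1, which keeps batch 1 alone, the changes were 2.11 for Ezh1 (adjusted p = 0.0248, limma), 0.93 for Ezh2 (adjusted p = 0.336, limma) and 2.49 for Jarid2 (adjusted p = 0.0121, limma). The same 6 promoters passed an adjusted p under 0.05 there, against 44.1% of all promoters, and 11 of the 50 peaks an adjusted p under 0.01, against 11.5% of all peaks. Under all 15 settings the changes of Ezh1, Suz12, Jarid2 and Cbx2 exceeded the median change of all promoters, and those of Ezh2 and of Bmi1, which the filter on low peaks removed in 1 setting, were below it.

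**Figure D4:**
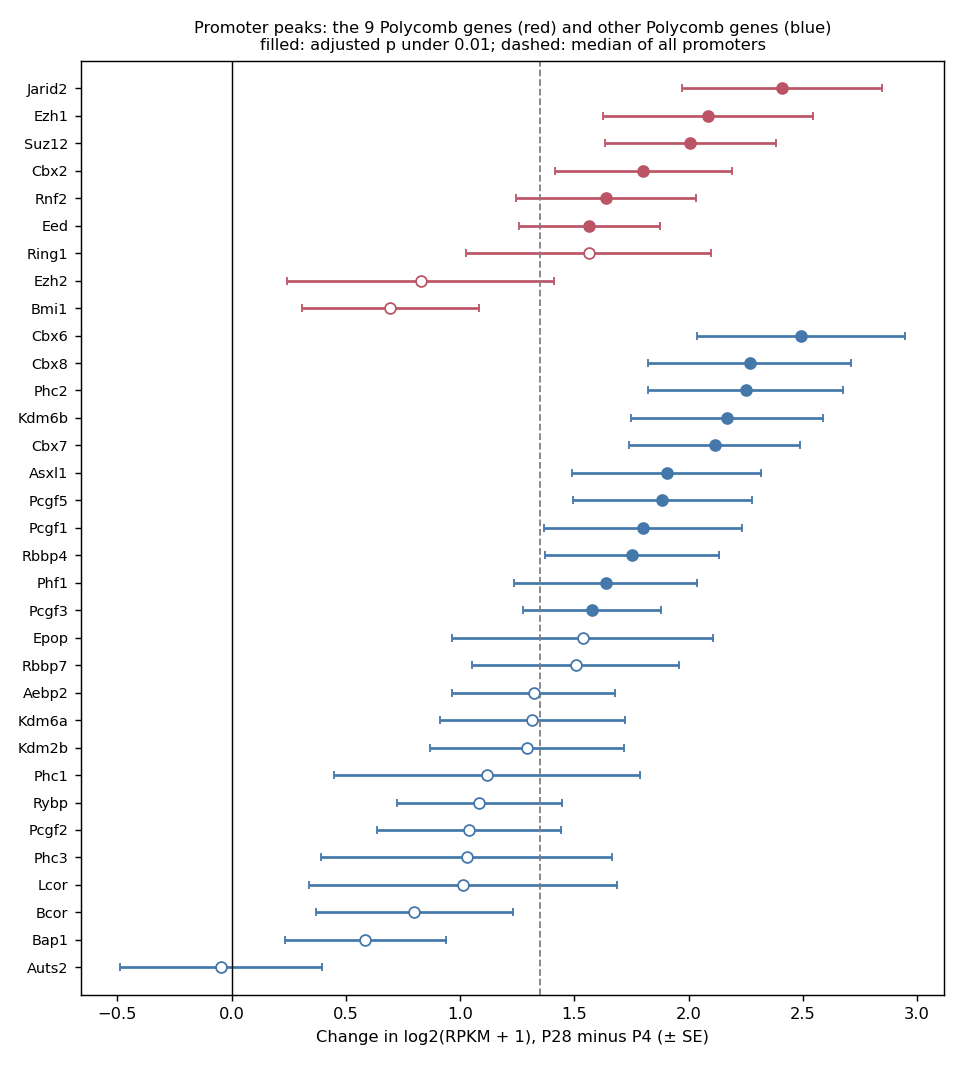
Points are the change in log2(RPKM + 1) from P4 to P28 at the promoter peak of each of the 9 Polycomb genes (red) and of 24 other Polycomb genes (blue), with bars of 1 SE. Filled points passed an adjusted p under 0.01, and the dashed line marks the median of all promoters at 1.35. Of the red points Ezh2 and Bmi1 lie to the left of it, as do several of the blue points.

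Other Polycomb genes were taken from a list, of which 31 are reported. Of these, 24 had a promoter peak at a protein-coding transcript, and 11 of the 24 were called higher from P4 to P28, against 33.4% of all promoters, with a median change of 1.52. These 11 calls became 0 with scaling to reads in peaks, against 7.48% of all promoters, and 4 with quantile normalisation, against 16.9%. They became 0 or 1 when any 1 of the P4 or P28 libraries was left out, against 9.33% to 17.5%. None was called lower, and Auts2, a partner of PRC1 in neurons, had the only change below 0 (-0.04). By role, 2 of 6 further PRC2 genes, 7 of 14 PRC1 genes and 2 of 4 genes of opposing enzymes were called. Those called with the smallest adjusted p included 3 of the CBX readers. Cbx7 changed by 2.11 ± 0.37 (SE, adjusted p = 0.00196, limma), Cbx6 by 2.49 ± 0.46 (SE, adjusted p = 0.00233, limma) and Cbx8 by 2.27 ± 0.44 (SE, adjusted p = 0.00327, limma). Cbx8 went from 1.84 ± 0.0196 RPKM (SD, n = 2) at P4 to 12.7 ± 1.35 RPKM (SD, n = 3) at P28, Cbx6 from 1.25 ± 0.118 to 11.7 ± 0.864 RPKM, and Cbx7 from 0.815 ± 0.376 to 6.82 ± 1.06 RPKM. The others were Phc2, a polyhomeotic subunit (2.25, adjusted p = 0.00277, limma), and Pcgf3, a partner of the ligases in variant PRC1 (1.58, adjusted p = 0.00291, limma). Kdm6b, a demethylase that removes the PRC2 mark, changed by 2.17 (adjusted p = 0.00317, limma) and was the only one of the 24 called from P4 to P10, against 11.6% of all promoters. Its peak does not cover a start site: the annotation puts it at -993 bases from the nearest one, whereas the other 23 lie at 0 or 26 bases. Its level at P4 rests on 3 reads, all in replicate 1. It stood at 1.65 and 0 RPKM at P4, 15.3 and 13.3 RPKM at P10, and 5.70, 6.38 and 6.88 RPKM at P28, with its 3 ages apart and P10 the highest. The other 7 genes of the list, Mtf2, Phf19, Pcgf6, Scmh1, Yaf2, L3mbtl2 and Asxl2, had no such peak.

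By its medians the base composition of the 9 member promoters was richer in CpG than that of the members' intron peaks, though not in every peak. The 9 promoter peaks had a median GC of 67.8% and a median ratio of observed to expected CpG of 0.854, against 59.5% and 0.689 over all 9956 promoters. The lowest GC was that of the chosen Bmi1 promoter peak, at 46.7% and a ratio of 0.616, followed by the internal Jarid2 promoter at 49.4% and 0.292, whereas the first Jarid2 promoter had 67.1% and 0.867. The ratio of the internal Jarid2 promoter lay below the highest among the intron peaks, 0.403. The 23 intron peaks of the members had medians of 44.2% and 0.190, against 48.5% and 0.181 over 45481 intron peaks. The RefSeq windows of 8 members were found, and Cbx2 was not among them. Among those of the other members, Bmi1 held the most GC boxes, 6, followed by Suz12 and Ring1 with 3 each, Rnf2 with 2 and both Jarid2 windows with 1, while Eed held none. Suz12 had 41 CpG and Ring1 37, and GC boxes occur in 35.7% of all windows.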

How the data were processed

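The 7 H3K18La CUT&Tag libraries were analysed from the deposited peak table. The authors mapped reads to GRCm38, called MACS peaks, kept those beyond a -log10 q of 6 in at least 2 replicates of an age (of 3 in the study's text, against 2 libraries each analysed here at P4 and P10), merged the ages and annotated them with ChIPseeker 1.34.1. The deposited RPKM values divide reads per merged peak, counted by the authors with csaw, by peak length and by a library size normalised on 10000-base windows. The authors' table of differential binding (edgeR 3.40.2 fold changes and p-values) was not used. RPKM times width was a whole multiple of 1 amount per library for 100% of values (tolerance 0.01), which recovered the reads.

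Here log2(RPKM + 1) of all 108253 peaks was fitted with limma 3.58.1 (R 4.3.3, all 7 libraries, trended empirical Bayes), p-values were adjusted by Benjamini-Hochberg over all peaks, and calls used 0.01. No peak was filtered out. On simulated data with 20000 peaks changed, P28 against P4, 63.8% of 4-fold and 96.5% of 8-fold changes were recovered among 108253 peaks. With 200 changed none passed the adjusted threshold. Recovery at peaks with as few reads as those of Ring1 and Bmi1 was not tested. Single contrasts used exact permutation tests (scipy 1.17.1). Fold intervals were exact binomial intervals (95%) of pooled reads per library size, and a group with 0 reads was set to a floor of 3 reads per library.

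Named were all 9 members at the promoter peak of a protein-coding transcript nearest the start site (the widest on ties), the 3 called non-promoter peaks with the largest change and any called lower, the 6 other Polycomb genes with the smallest adjusted p and any called lower, and the 3 promoters nearest to Ezh1 and to Ezh2. The members and lists were chosen with earlier results of these data known, and 1 gene of the list of other Polycomb genes is not reported here. The alternatives were another pseudocount (0.1), a filter, 3 other scalings, voom on the recovered reads, a replicate block, each library left out, the mean of a gene's promoter peaks, a threshold of 0.05, and, chosen after seeing the data, the widest promoter peak. Promoter sequences are RefSeq (GRCm38.p6).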

Additional observations from a re-analysis of the deposited data

How the results depend on the processing

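Promoter peaks of the 9 genes called from P4 to P28 numbered 6, and 3 with a pseudocount of 0.1, 3 with median centring, 0 with scaling to reads in peaks and 2 with a replicate block. The shares of all promoters called moved the same way, from 33.4% to 22.7%, 22.0%, 7.48% and 18.6%. Leaving out single libraries gave 0 to 6 (9.33% to 55.5% of all promoters), the upper value without either P10 library. From P4 to P10 the 1 call became 0 with scaling to reads in peaks or quantile normalisation, 2 with voom or the widest promoter peak, 4 at an adjusted p under 0.05, and 0 to 1 with single libraries left out. The 11.6% of all promoters became 2.46%, 2.40%, 14.0% (voom), 24.3% (at 0.05) and 2.66% to 14.9%. From P10 to P28 the 0 calls became 2 at an adjusted p under 0.05 and 0 to 3 with single libraries left out, the 3 without P10 replicate 2, against 15.2% of all promoters at 0.05 and 20.0% without that library. Of all 50 peaks, the 25 called became 15 with either a pseudocount of 0.1 or median centring, 9 with scaling to reads in peaks, 38 with voom, 14 with the replicate block, and 7 to 40 with single libraries left out, the highest without either P10 library and the lowest without either P4 library. Of all peaks the share went from 18.9% to 12.8%, 13.1%, 7.30%, 30.2%, 11.4%, and 5.21% to 32.1%. The 11 calls among other Polycomb genes became 5, 6, 0, 4, 17 and 4 with the pseudocount, median centring, scaling to reads in peaks, quantile normalisation, voom and the replicate block, where quantile normalisation called 16.9% and voom 53.3% of all promoters, and 0 to 16 with single libraries left out. The causes were not tested.

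The Ezh1 minus Ezh2 shift from P4 to P28 stayed above 0 in every setting run for it. Scaling to reads in peaks and voom were not run for this contrast. The shift was 1.02 to 1.49 with single libraries left out and 1.92 with a pseudocount of 0.1. Quantile normalisation gave 1.78 and the replicate block 1.28. The gap in the share of reads was 21.7 to 28.3 percentage points with single libraries left out. From P4 to P10 the shift ran from -0.21 (without P10 replicate 1) to 0.91 with single libraries left out. Changes of single genes that turned sign were all uncalled. Scaling to reads in peaks gave -0.37 for Ezh2 and -0.12 for Bmi1 from P4 to P28, and -0.093 for Jarid2 and -0.54 for Rnf2 from P4 to P10. Quantile normalisation gave -0.29 for Rnf2, 0.10 for Ezh1 and 0.039 for Bmi1 from P4 to P10, and voom gave 0.43 for Ezh1 and 0.045 for Bmi1. Without P10 replicate 1 these changes were 0.27 for Ezh1, 0.48 for Ezh2 and 0.032 for Bmi1, the upper ends of ranges that began at -0.77, -1.68 and -0.73.

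The difference between replicates 1 and 2 over all peaks was hardly correlated between ages, at 0.039, -4.41e-04 and 0.043 for the 3 pairs of ages. The median peak had only 1 or 2 reads in the P4 and P10 libraries, and counting noise pulls such correlations toward 0. They therefore cannot show whether same-numbered libraries share more than a number. Depth limits the P4 and P10 levels more than the P28 levels. Ezh1, Suz12, Ring1, Bmi1 and Cbx2 had 2 or 3 reads in all at P4, and Ezh1, Ezh2 and Bmi1 had 0 reads in P10 replicate 1. A low level in these libraries was therefore not distinguishable from a small count.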
